A study of Lachancea kluyveri with 16 samples.

Results

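The genes described here lie nearest the left ends of 7 of the chromosomes of Lachancea kluyveri, a budding yeast of the same family as baker's yeast, Saccharomyces cerevisiae. They are the genes of chromosomes A, B, D, E, F, G and H whose systematic locus number, which rises along a chromosome from its left end, is below 600, with 3 loci left out by the rule. That gave 119 of the 5316 genes on the array (238 of 10620 gene probes): 21 on chromosome A, 17 on B, 22 on D, 8 on E, 20 on F, 16 on G and 15 on H. The limit of 600 is one of position. Why the 3 loci were left out is not known, so the choice cannot be called free of measured values. A locus number gives the order of genes, not a distance in bases, and no genome coordinates were used. Each gene had a pair of probes, and the probe with the higher mean over all arrays stands for the gene.

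Total RNA was measured on 16 single-colour arrays, 4 biological repeats in each of 4 groups. The wild type (WT) was strain JYL1897, and sef1Δ was 1 deletion strain made from it by putting the KanMX6 marker in place of SEF1, the gene of a zinc cluster transcription factor. All 4 groups share the MATa ura3 background of JYL1897. Cells from an overnight YPD (glucose) preculture at 28 °C were diluted to 0.2 OD600 per ml into YPD or into YPGly, which holds glycerol, a carbon source that can only be respired, and were harvested after 5.5 h at 30 °C.

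In baker's yeast the region beside a telomere is known in 2 respects. The Ku heterodimer, Rap1 and the Sir proteins build a repressive chromatin that starts at the telomere and weakens inwards, so that a gene placed there can be silenced. The same regions hold fast-evolving gene families with roles at the cell surface and in nutrient use, such as flocculins, sugar and metal transporters, siderophore transporters and invertase. Names and roles below are those of the baker's yeast orthologs in the study's own annotation, which covers 64 of the 119 genes.

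The 75th percentile of the gene signal was 718 to 2410 on the 16 arrays, and 90.5% to 98.7% of the gene probes were well above background. No gene probe was saturated. The SEF1 probe was well above background on all 8 WT arrays, on 0 of 4 sef1Δ YPD arrays and on 1 of 4 sef1Δ YPGly arrays. Its signal in sef1Δ was at least 28.9-fold lower than in WT in YPD (limma, adjusted p = 7.35e-06), and at least 33.2-fold lower in YPGly (limma, adjusted p = 0.00116). Signals are given as log2 values relative to the 75th percentile of the same array, so a level of 0 is the 75th percentile. The signal of a probe depends on the probe as well as on the transcript, so levels of different genes describe signals, not amounts of RNA.

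Among the left-end genes, those with the lowest locus numbers had the lowest median signal. The 25 genes with a locus number below 200 had a median level of -3.93, and 12 of them (48.0%) were well above background on all 16 arrays. The 40 genes from 200 to below 400 had a median of -1.51, and 30 of them were above background throughout. In the 54 genes from 400 to below 600 the median was -1.25 and 47 were above background throughout (87.0%). The 4429 interior genes of the same chromosomes, with a locus number of at least 600 and more than 600 below the highest of the chromosome, had a median of -1.18 with 93.0% above background throughout. Dim signals were most frequent at the outermost loci but not limited to them. Of the 48 left-end genes below the lower quartile of all gene signals, 17 had a locus number below 200 (68.0% of that class). A further 14 had one from 200 to below 400 (35.0%) and 17 one from 400 to below 600 (31.5%), beside 24.9% of the interior.

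Over all 119 left-end genes the median was -1.66, which is 0.48 below the interior on the log2 scale. The difference was computed on each array as well. It ranged from -0.67 to -0.10 and was below 0 on 16 of 16 arrays. The means were -0.59 ± 0.03 in WT in YPD, -0.57 ± 0.09 in sef1Δ in YPD, -0.42 ± 0.23 in WT in YPGly and -0.51 ± 0.11 in sef1Δ in YPGly (SD, n = 4 each), so the arrays of the 4 groups overlapped. The array nearest to 0 was WT YPGly replicate 4. The 48 left-end genes below the lower quartile made up 40.3%, against 24.9% of the interior. The 181 genes of the right ends, within 600 locus numbers of the highest one, had 34.3% there and a median of -1.36. At the right ends the median was also lowest in the outermost class, at -2.19 over the 63 genes within 200 of the last locus. No test was made of these medians, because genes are not replicates.

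**Figure D1:**
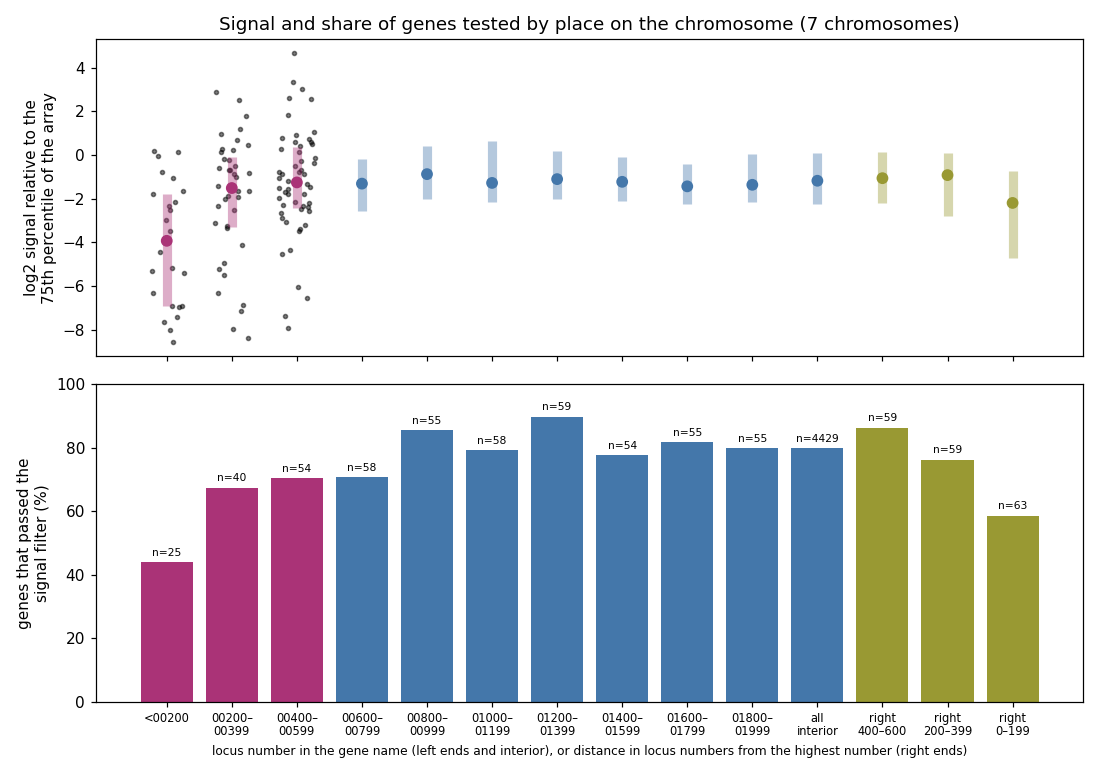
Signal and testability of genes by place on the chromosome. The upper panel gives the median log2 signal relative to the array's 75th percentile (large dot) with its quartiles (bar) per class of locus number, with each left-end gene as a small dot, and the lower panel gives the percentage of genes that passed the signal filter, with n above each bar. The medians of the left ends run from -3.93 in the outermost class to -1.25 in the innermost, and the outermost class at the right ends is also low, at -2.19.

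The left ends were not alike. On chromosome H the median level was -0.06 and 14 of 15 genes were above background on all arrays, and on chromosome A the median was -1.33 with 21 of 21. On chromosomes B, E and F the medians were -2.46, -3.90 and -3.29, and 9 of 17, 4 of 8 and 10 of 20 genes were above background throughout. Chromosomes D and G lay between, at -1.66 and -1.76. The brightest left-end gene was HXK2 (SAKL0F00462g, the glucose-phosphorylating hexokinase), with a mean level of 4.66. It was followed by GAS1 (SAKL0H00528g, a glucan-remodelling enzyme of the cell wall) at 3.36 and MSC1 (SAKL0D00528g, of unknown function) at 3.00. YMR315W (SAKL0D00242g) at 2.91 and SCW4 (SAKL0H00484g, a glucanase-like cell wall protein) at 2.63 completed the 5 brightest. The dimmest gene was SAKL0G00176g at -8.57, above background on 0 of 16 arrays. Next came YLL058W (SAKL0B00242g, similar to a cystathionine gamma-synthase) at -8.36, SAKL0G00110g at -8.00, SAKL0B00286g at -7.99 and ZPS1 (SAKL0B00440g, a GPI-anchored protein) at -7.93. At the limit of the rule, the last locus inside on each chromosome had levels from -4.54 to 1.82 (median 0.60, n = 7), and the first locus outside from -3.39 to 2.33 (median -1.76, n = 7).

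Tests were made on genes whose signal reached 200 on every array of at least 1 group. Of the 119 left-end genes, 76 (63.9%) passed this filter, against 80.0% of the interior genes and 80.0% of all genes. A gene could pass through its brighter group alone. A gene was called changed at a limma adjusted p of at most 0.05, adjusted over all 4255 genes tested, together with a change of at least 1.5-fold.

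The change of medium moved many left-end genes, in about the proportion seen genome-wide. In WT, 31 of 76 left-end genes changed, against 41.9% of all genes tested. Of these, 16 were higher in YPGly, where 17.5% of all genes were higher, and 15 were lower, where 24.3% of all genes were lower. In sef1Δ 37 of 76 changed, against 40.5% of all genes, with 20 higher (18.1% of all genes) and 17 lower (22.4% of all genes). The median change over the 76 genes was -0.08 in WT and 0.05 in sef1Δ, beside -0.14 and -0.11 over all genes tested. The comparisons in WT and in sef1Δ share no array. Of the 43 left-end genes called in either, 15 rose and 10 fell in both strains, 6 were called in WT alone, 12 in sef1Δ alone and 0 in opposite directions. The same overlap was not counted over all genes, so it cannot be read as particular to the left ends. Being called in 1 strain alone does not show a difference between the strains, which is tested further on. For all 31 and all 37 called genes the gene's other probe changed in the same direction. Scaling the arrays to their spike-in controls raised the median change of all genes to 0.55 in WT and 0.21 in sef1Δ. The split then became 28 higher and 2 lower in WT and 24 higher and 9 lower in sef1Δ, against 1558 and 179 and against 1023 and 445 over all genes, so the directions below are relative to each array's 75th percentile.

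Genes of uptake were among those that fell in glycerol. Of the 7 uptake genes of the left ends 4 were tested, and 3 fell in WT, both FET4 copies among them. In sef1Δ 2 fell and 1 rose (median change -1.30 in WT and -0.87 in sef1Δ). Over all genes tested 24.3% fell and 17.5% rose in WT, and 22.4% fell and 18.1% rose in sef1Δ. The same shares apply to the functional lists that follow, and no list was tested as a set. FET4 encodes the low-affinity iron transporter of baker's yeast, and both left-end copies fell. SAKL0B00308g had levels of 0.92, 0.83, 0.40 and 1.41 on the WT YPD arrays and of -1.14, -0.89, -1.60 and -0.91 on the WT YPGly arrays. In sef1Δ it had 0.88, 0.90, 0.12 and 0.69 in YPD and -1.46, -0.95, -1.55 and -1.59 in YPGly. All YPGly arrays lay below all YPD arrays in both strains. It fell by 2.02 in WT (SE 0.24, limma, adjusted p = 9.18e-05) and by 2.03 in sef1Δ (SE 0.22, limma, adjusted p = 8.06e-05) on the log2 scale, about 4.07-fold and 4.09-fold. The second copy, SAKL0H00132g, fell by 1.47 in WT (limma, adjusted p = 0.000483) and by 1.45 in sef1Δ (limma, adjusted p = 0.000595). The array's annotation lists each of these FET4 genes as a further match of the other's probe, so the 2 values are not independent measurements. DUR3 (SAKL0D00132g), the transporter of urea and polyamines, fell by 1.12 in WT (limma, adjusted p = 0.0100), where its groups of arrays overlapped. FUI1 (SAKL0F00286g), the uridine permease, rose 2.83-fold in sef1Δ (limma, adjusted p = 0.00181), beside a log2 change of 0.33 in WT (limma, adjusted p = 0.394).

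The gene with the largest change of medium was a metabolic one. Of the 10 metabolic genes 5 were tested, and 1 rose and 2 fell in WT, while 1 rose and 1 fell in sef1Δ (median change -0.19 and -0.13). SAKL0H00374g, named after ADH5 and similar to alcohol dehydrogenases, had levels of -2.34, -2.13, -2.38 and -1.88 in WT in YPD and of 2.45, 2.06, 2.09 and 3.14 in WT in YPGly. In sef1Δ the levels were -2.61, -2.76, -2.66 and -1.66 in YPD and 3.71, 3.07, 3.03 and 3.50 in YPGly. The 2 media were thus separated by more than 3 log2 units in each strain. The gene rose 24.6-fold in WT (log2 change 4.62, SE 0.25, limma, adjusted p = 2.92e-07) and 54.0-fold in sef1Δ (5.76, SE 0.27, limma, adjusted p = 2.39e-07). ERG13 (SAKL0D00594g), the HMG-CoA synthase of the sterol pathway, moved the other way. Its levels were 2.42, 2.33, 2.68 and 2.56 in WT in YPD and 1.20, 1.20, 1.05 and 1.05 in WT in YPGly, with no overlap. ERG13 fell by 1.37 in WT (SE 0.14, limma, adjusted p = 4.45e-05) and by 1.25 in sef1Δ (SE 0.18, limma, adjusted p = 0.000367). HXK2, the brightest of the left-end genes, fell by 1.00 in WT (SE 0.28, limma, adjusted p = 0.0149). In sef1Δ its YPGly levels were 4.22, 5.67, 3.42 and 4.07, and its change of -0.73 did not pass the test (SE 0.41, limma, adjusted p = 0.171). The sef1Δ YPGly array at 5.67 was higher than all 4 sef1Δ YPD arrays, and without it HXK2 fell by 1.18 and was called.

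Cell wall and surface genes moved in both directions. Of the 8 genes 6 were tested, and 2 rose and 2 fell in WT, while 3 rose and 3 fell in sef1Δ (median change -0.10 and -0.03). The wall enzymes were among those that fell. GAS1 had levels of 4.01, 4.03, 4.19 and 4.13 in WT in YPD and of 2.24, 2.66, 2.64 and 3.40 in WT in YPGly, and fell by 1.36 (SE 0.23, limma, adjusted p = 0.000772). SCW4 fell by 1.14 in WT (SE 0.20, limma, adjusted p = 0.000896) and by 1.35 in sef1Δ (SE 0.21, limma, adjusted p = 0.000544). FIG2 (SAKL0A00572g), an adhesin of mating cells in baker's yeast, fell by 1.21 in sef1Δ (limma, adjusted p = 0.000544). The genes that rose were the flocculins and a regulator. SAKL0H00176g, one of the genes named after the flocculin FLO1, by which baker's yeast cells adhere to each other, had levels of -3.30, -2.92, -3.67 and -3.68 in WT in YPD and of -0.89, -1.15, -1.66 and -0.29 in WT in YPGly. It rose 5.26-fold in WT (log2 change 2.40, SE 0.29, limma, adjusted p = 0.000101) and 2.22-fold in sef1Δ (limma, adjusted p = 0.00452). The other FLO1-named gene, SAKL0D00176g, rose by 1.17 in sef1Δ (limma, adjusted p = 0.00520), beside 0.46 in WT (limma, adjusted p = 0.0835), which passed, at 0.64, without WT YPGly replicate 3. LRG1 (SAKL0G00396g), a GTPase-activating protein of cell wall signalling, rose by 1.20 in WT and by 1.28 in sef1Δ (limma, adjusted p = 0.00130 and 0.000593).

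Genes with mitochondrial products were few and moved both ways. All 3 were tested, and in WT 1 rose and 1 fell, while in sef1Δ 2 rose and 1 fell (median change -0.30 and 0.78). YME2 (SAKL0H00396g), an inner membrane protein, rose by 1.19 in WT and by 1.30 in sef1Δ. YMC1 (SAKL0A00132g), an inner membrane carrier, fell by 0.66 in WT (limma, adjusted p = 0.00790) and by 1.34 in sef1Δ (limma, adjusted p = 0.00414), but with spike-in scaling its WT change was 0.03, and without WT YPGly replicate 3 it was -0.57 and not called. RPM2 (SAKL0D00572g), the protein subunit of mitochondrial RNase P, rose by 0.78 in sef1Δ (SE 0.17, limma, adjusted p = 0.00505), beside -0.30 in WT (limma, adjusted p = 0.207). NAR1 (SAKL0G00352g), a factor of cytosolic iron-sulfur protein assembly that the annotation describes by its nuclear architecture and that is listed here under DNA and transcription, rose by 1.56 in WT (limma, adjusted p = 0.00263) and by 0.97 in sef1Δ (limma, adjusted p = 0.0350).

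Of the 9 genes of secretion and trafficking, all tested, 3 fell and 2 rose in WT and 3 fell and 2 rose in sef1Δ (median change -0.05 and -0.01). ERO1 (SAKL0D00308g), the thiol oxidase that drives disulfide formation in the endoplasmic reticulum, had levels of 0.61, 1.15, 0.90 and 0.63 in sef1Δ in YPD and of -0.98, -0.77, -0.81 and -1.12 in YPGly. It fell by 1.75 in sef1Δ (SE 0.18, limma, adjusted p = 4.62e-05) and by 0.95 in WT (SE 0.19, limma, adjusted p = 0.00243). PEP1 (SAKL0E00242g), the sorting receptor of vacuolar hydrolases, fell by 1.07 and 0.76, and BRE5 (SAKL0A00352g), a cofactor of the ubiquitin protease Ubp3, fell by 1.44 in sef1Δ. KEX2 (SAKL0G00440g), the protease that processes the alpha-factor precursor, fell by 0.62 in WT (limma, adjusted p = 0.0298). The 2 that rose in both strains were MSO1 (SAKL0A00286g), of secretory vesicle fusion, and FPK1 (SAKL0A00484g), a flippase kinase, with changes from 0.61 to 0.76. Of the 7 genes of RNA and ribosomes 5 were tested and 0 were called by limma in either strain (median change -0.15 and -0.08). At an unadjusted p under 0.05 they numbered 0 in WT and 1 in sef1Δ, where 55.5% and 52.8% of all genes tested passed.

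Several of the largest rises belonged to genes without a known function. Of the 17 such genes 10 were tested, and 4 rose and 1 fell in WT, while 5 rose and 2 fell in sef1Δ (median change 0.28 and 0.51). Of the 55 genes outside the annotation 32 were tested, and 5 rose and 3 fell in WT, while 5 rose and 5 fell in sef1Δ (median change -0.10 and 0.11). YKL070W (SAKL0A00176g) had levels of -3.51, -3.79, -3.71 and -3.63 in WT in YPD and of -0.17, -0.48, -0.22 and -0.68 in WT in YPGly, and rose 9.66-fold (log2 change 3.27, SE 0.16, limma, adjusted p = 1.96e-07). In sef1Δ it rose 4.88-fold (limma, adjusted p = 0.000197). MSC1 rose 4.88-fold in WT and 3.38-fold in sef1Δ (limma, adjusted p = 7.93e-06 and 0.000281), from levels of 1.58 to 2.17 on the WT YPD arrays to 4.02 to 4.49 on the WT YPGly arrays. SAKL0H00330g, outside the annotation, rose 5.70-fold in WT and 5.97-fold in sef1Δ (limma, adjusted p = 4.34e-05 and 1.99e-05). YMR315W fell by 1.22 in WT and by 0.84 in sef1Δ (limma, adjusted p = 0.000491 and 0.000940).

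SAKL0E00264g, a conserved hypothetical gene, had levels of 3.71, 3.55, 3.31 and -0.08 in WT in YPGly, and of -0.03, -0.27, 0.30 and -0.20 in WT in YPD. Replicate 4 in YPGly was within the range of the YPD arrays, so the groups overlapped. The gene rose by 2.67 in WT (SE 0.70, limma, adjusted p = 0.0103), and by 3.57 when that array was left out. In sef1Δ, with YPGly levels of 1.27, 1.06, 1.96 and 0.84, it rose by 1.25 (SE 0.27, limma, adjusted p = 0.00381). Its probe also names SAKL0C14058g as a match.

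**Figure D2:**
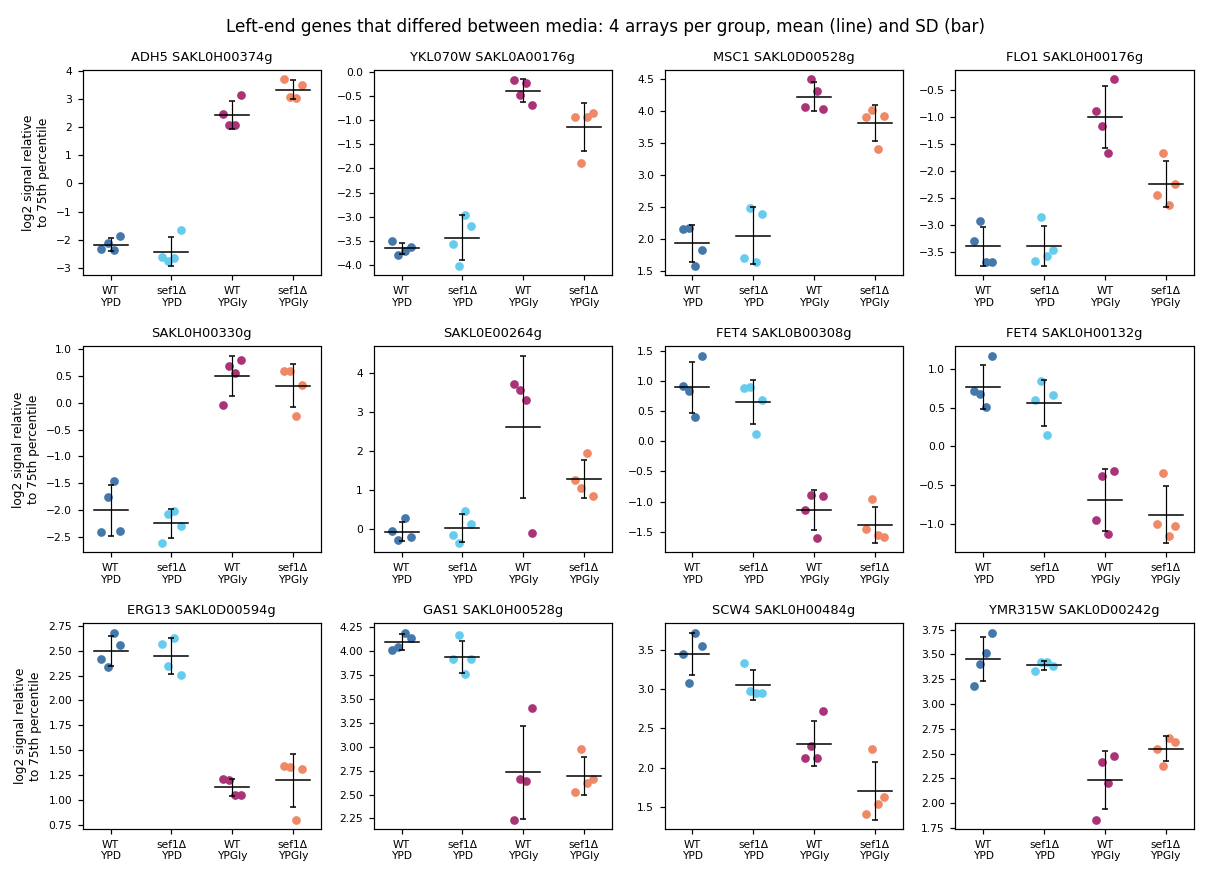
Log2 signal relative to the array's 75th percentile of 12 left-end genes that differed between media, in 4 groups of 4 arrays each (dots), with the group mean (line) and SD (bar). ADH5 in the first panel rises from levels near -2 in YPD to between 2.06 and 3.71 in YPGly, the FET4 copies fall in both strains, and 1 of the 4 WT YPGly arrays of SAKL0E00264g stays at the YPD level.

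Some neighbouring genes rose together. This was noticed after the values were seen. On chromosome G the 4 consecutive arrayed genes from SAKL0G00352g to SAKL0G00418g (NAR1, SAKL0G00374g, LRG1 and SAKL0G00418g) were higher in YPGly in both strains, with changes of 0.78 to 1.56 in WT and of 0.59 to 1.28 in sef1Δ. The call of SAKL0G00418g in WT held without either replicate 2 and was lost without any 1 of the other 6 arrays, at 0.65 to 0.80, and in sef1Δ it was lost without YPD replicate 1 or YPGly replicate 1 or 4. On chromosome H the 5 consecutive arrayed genes from SAKL0H00176g to SAKL0H00396g (FLO1, SAKL0H00286g, SAKL0H00330g, ADH5 and YME2) were likewise higher, by 0.67 to 4.62 in WT and by 0.67 to 5.76 in sef1Δ. Such stretches were not confined to the left ends. Over the whole of these 7 chromosomes, without chromosome C, runs of 4 or more neighbours called in the same direction were counted. There were 8 in WT and 10 in sef1Δ, and the longest held 6 and 5 genes. Among pairs of adjacent left-end genes that were both called, 7 of 11 (63.6%) went the same way in WT and 8 of 13 (61.5%) in sef1Δ, beside 56.9% and 57.5% over all such pairs. The left-end pairs include those inside the stretches on chromosomes G and H, so these shares are not a separate measure. By distance from the end, 5 of 11 genes tested below 200 were called in WT, 13 of 27 from 200 to below 400 and 13 of 38 from 400 to below 600 (45.5%, 48.1% and 34.2%), beside 41.9% of all genes. In sef1Δ they were 6, 16 and 15 (54.5%, 59.3% and 39.5%), beside 40.5% of all genes, and no difference between the classes was tested.

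**Figure D3:**
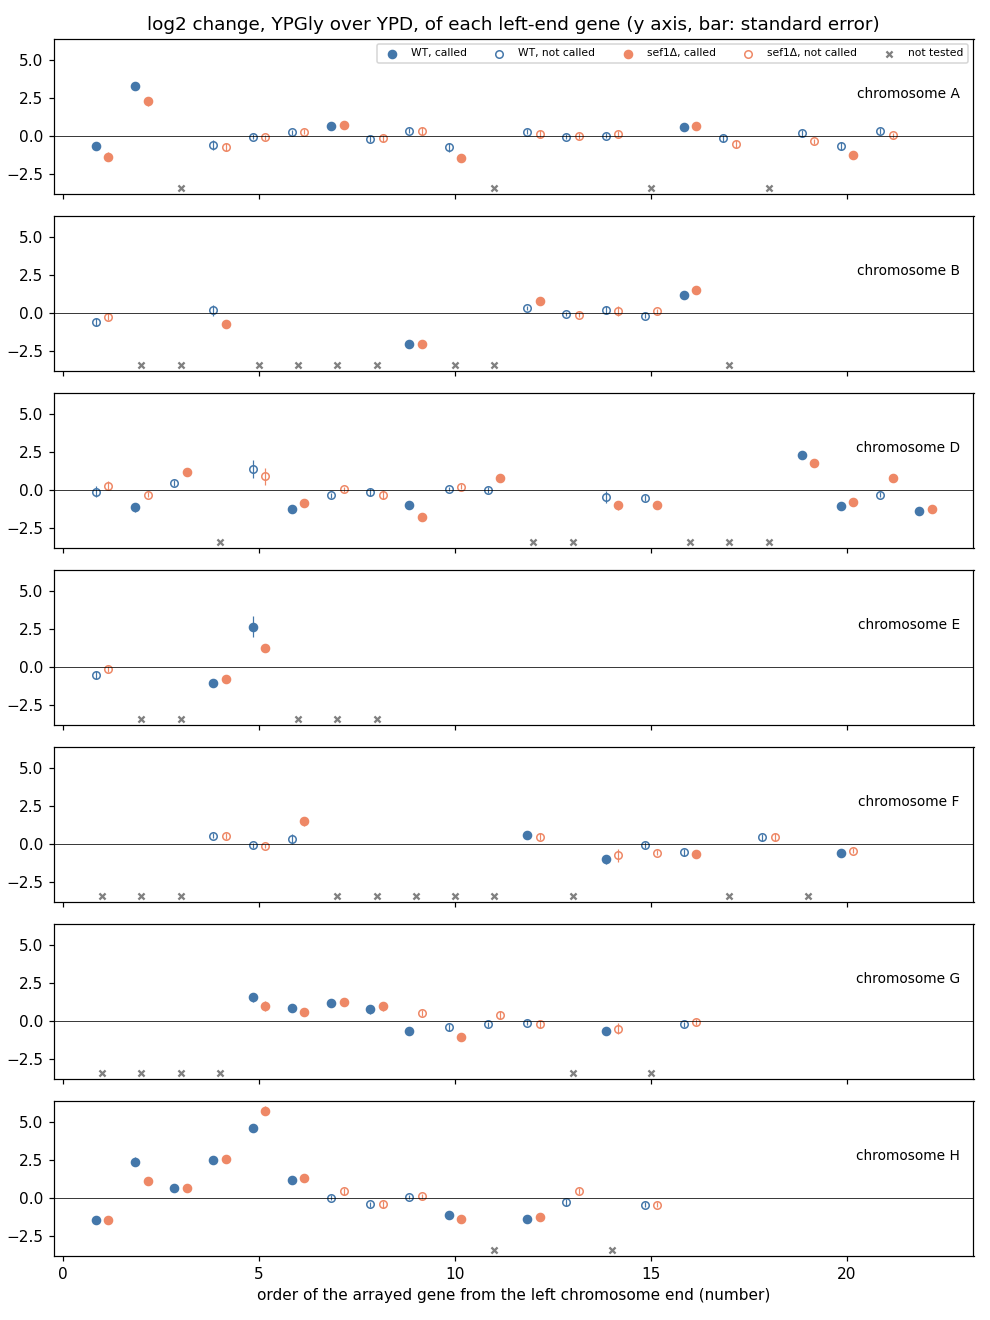
Log2 change of each left-end gene, YPGly over YPD (y axis, bar: standard error), against the order of the gene on the array from the left end of its chromosome (x axis), for WT and sef1Δ. Filled points are genes called changed, open points genes tested and not called, and crosses genes that were not tested; the risers on chromosome H stand beside each other, and the crosses gather at the left of chromosomes F and G.

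The 43 left-end genes that did not pass the signal filter include some that were well above background on all YPGly arrays and on few or none in YPD. Where no array of the dimmer group was well above background, the difference has only a bound. The bound compares the mean of the brighter group with a floor for the dimmer one, which on each array is the gene's own signal or, if that is higher, the dimmest signal of any probe that stood well above background. Left-end genes well above background on 4 of 4 arrays numbered 89 in WT in YPD and 106 in WT in YPGly, and 99 and 107 in sef1Δ. Over all genes such genes made up 92.2% and 97.4% in WT, and 96.5% and 97.7% in sef1Δ. Left-end genes on no array numbered 13 and 6 in WT, and 8 and 7 in sef1Δ. Over all genes the shares on no array were 1.82% and 0.828% in WT, and 1.35% and 0.696% in sef1Δ. WT YPD replicate 4 had 90.5% of its gene probes well above background, against at least 96.2% on the other arrays. The WT YPD counts on 4 of 4 arrays therefore depend in part on that array.

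INO1 (SAKL0F00396g), the inositol-phosphate synthase, was at -6.05, -7.82, -7.90 and -6.07 in WT in YPD, on 0 arrays above background. In WT in YPGly it was at -2.93, -4.17, -2.96 and -3.93, which is at least 4.98-fold higher. In sef1Δ it was above background on 1 of 4 YPD and 4 of 4 YPGly arrays, with means of -7.27 and -4.24. SAKL0E00176g and SAKL0F00132g are both similar to the beta-alanine synthase PYD3 of pyrimidine breakdown. They were at least 8.61-fold and at least 6.20-fold higher in WT in YPGly. In sef1Δ each was above background on 2 of 4 YPD arrays and on 4 of 4 in YPGly. Their probes name each other's gene, so they may report the same transcript, and this was not tested. SAKL0E00154g, a conserved hypothetical gene, was at least 3.27-fold higher in YPGly in WT and at least 3.43-fold higher in sef1Δ, and SAKL0F00572g was at least 2.30-fold higher in WT, with 1 of 4 sef1Δ YPD arrays above background. The direction was opposite for SAKL0B00198g, which was at least 2.99-fold higher in YPD than in YPGly in sef1Δ. ZPS1 was above background on 2 of 4 WT YPD arrays and on no other, and was at least 2.12-fold higher in WT in YPD than in YPGly. These genes were not tested for a change. They lay outside the test because they did not reach the filter, and SUC2 (SAKL0B00220g, invertase) and ARN2 (SAKL0F00110g, a siderophore transporter) also stayed below it, with mean levels of -5.22 and -6.97.

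Loss of SEF1 left the left-end genes in YPD without a called change. The limma test called 0 of the 76, against 0.0705% of all genes tested (3 genes, all lower). At an unadjusted p under 0.05, 2 of 76 (2.63%) passed, beside 2.66% of all genes. The smallest p-values were those of SAKL0F00198g, with a log2 difference of -0.37, and SCW4, with -0.40 (limma, unadjusted p = 0.0339 and 0.0408, adjusted p = 0.999 for both). SAKL0H00550g at -0.28, BRE5 at 0.33 and SAKL0D00286g at 0.37 followed. The probe of SAKL0F00198g also names SAKL0B12716g.

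In YPGly the differences between the strains were larger, and none of the left-end genes passed the threshold in the unpaired test. It called 0 of 76, against 1.22% of all genes tested. With the 3 loci left out by the rule put back, 2 of 79 were called (2.53%), both lower in sef1Δ. That return was chosen after the values were seen. At an unadjusted p under 0.05, 17 of 76 (22.4%) passed, 9 higher and 8 lower in sef1Δ, beside 12.3% of all genes, 11.1% of the interior and 23.3% of the right ends. The array groups of 12 genes did not overlap, against 9.54% of all genes. The sample titles give repeat numbers but state no pairing of the 2 strains. In YPGly the deviations of replicates 1 and 4 from their group means correlated more with those of a differently numbered array. With the repeat taken as a block all the same, 9 of the 76 genes were called (11.8%, against 5.26% of all genes), 4 higher and 5 lower in sef1Δ. The 4 higher ones were RPM2, FUI1, KEX2 and ADH5. The 5 lower ones were YMC1, FIG2, SAKL0B00176g, ERO1 and the FLO1-named SAKL0H00176g.

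RPM2 had levels of 0.87, 0.58, 0.42 and 0.60 in WT and of 1.37, 1.87, 1.49 and 1.25 in sef1Δ in YPGly, without overlap. Its log2 difference was 0.88 (SE 0.18, limma, adjusted p = 0.0579 unpaired and 0.0237 with the block). KEX2 had levels of -0.11, -0.45, -0.32 and 0.34 in WT and of 0.58, 1.36, 0.83 and 0.73 in sef1Δ, a difference of 1.01 (SE 0.23, limma, adjusted p = 0.0771 unpaired and 0.0375 with the block). For both genes every sef1Δ array was higher than every WT array. ERO1 was between -0.53 and 0.01 in WT and between -1.12 and -0.77 in sef1Δ, a difference of -0.76 (SE 0.18, limma, adjusted p = 0.0833 unpaired and 0.0187 with the block). The FLO1-named SAKL0H00176g was at -0.89, -1.15, -1.66 and -0.29 in WT and at -2.44, -1.65, -2.62 and -2.23 in sef1Δ. Its groups met at one point, where WT replicate 3 and sef1Δ replicate 2 were nearly level, and its difference was -1.24 (SE 0.31, limma, adjusted p = 0.0950 unpaired and 0.0187 with the block). SAKL0B00484g, with 0.56 (limma, adjusted p = 0.0950), was the fifth by p and was not called with the block.

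The count of calls in YPGly turned on single arrays. Without WT YPGly replicate 4, 5 of 76 genes were called (ERO1, SAKL0E00264g, FUI1, KEX2 and ADH5) against 2.28% of all genes. Without sef1Δ YPGly replicate 2, 4 were called (YMC1, ERO1, RPM2 and SAKL0H00176g) against 3.1% of all genes. ERO1 was in both sets. That the strain difference itself depends on the medium was tested as an interaction over all 16 arrays, where 0 of 76 genes were called (0.658% of all genes). At an unadjusted p under 0.05, 13 genes (17.1%) passed, beside 9.57% of all genes. The strain difference was larger in YPGly than in YPD by 1.08 for RPM2 (limma, adjusted p = 0.0591) and by 1.14 for KEX2 (limma, adjusted p = 0.107). With the repeat as a block RPM2 and ADH5 were called, against 1.34% of all genes, both at a limma adjusted p of 0.0387.

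**Figure D4:**
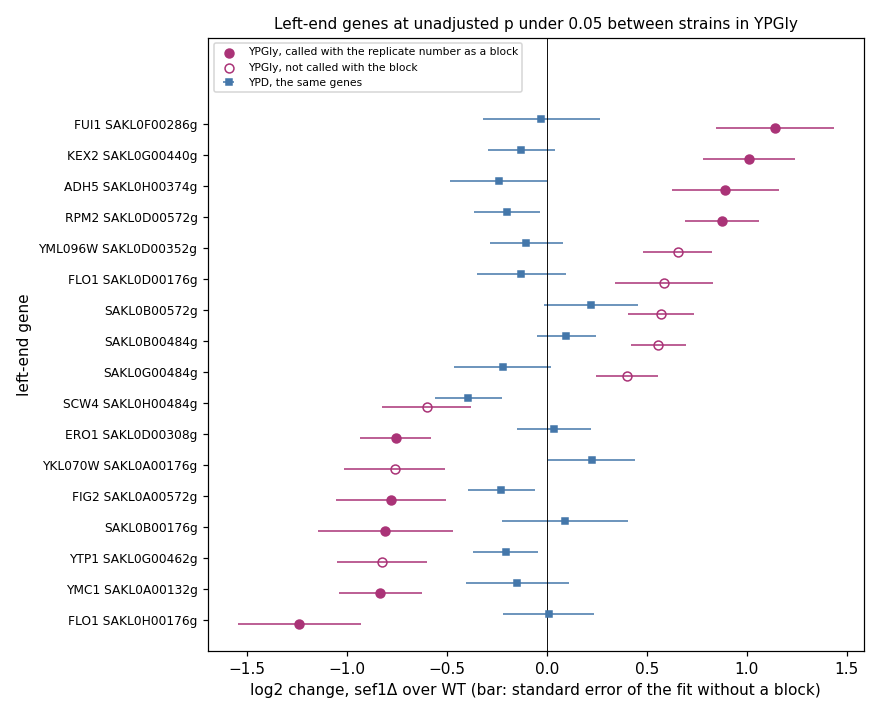
Log2 difference between sef1Δ and WT of the 17 left-end genes at an unadjusted p under 0.05 in YPGly (circles), and of the same genes in YPD (squares), with standard errors of the unpaired fit (bars). The 9 filled circles are genes called with the repeat as a block; the squares all lie between -0.40 and 0.22, while the circles reach from -1.24 to 1.14.

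Genes near peaks of Sef1 binding are listed in the study's supplementary tables. Of the left-end genes 8 are on that list, which holds 720 of the arrayed genes. They are SAKL0B00110g, the FLO1-named SAKL0D00176g, THI3, RPM2, ERG13, SAKL0E00110g, HXK2 and GAS1, and all were tested. In YPGly the strain comparison called 0 of the 8 with limma in the unpaired fit, against 2.44% of all tested genes on that list, and the smallest adjusted p was that of RPM2. Between media 3 of the 8 fell in WT (ERG13, HXK2 and GAS1) and 0 rose, where 30.3% of all tested genes on that list fell and 23.4% rose. In sef1Δ 2 rose and 2 fell, where 27.1% of the list rose and 26.5% fell. THI3 (SAKL0D00220g), related to decarboxylases and a regulator of thiamine genes in baker's yeast, was the most variable of them. It had levels of 1.42, 3.24, 2.21 and 0.64 in WT in YPD and of 2.68, 4.84, 2.65 and 2.97 in WT in YPGly. Its change of 1.40 was not called (SE 0.59, limma, adjusted p = 0.0729), and without WT YPD replicate 2 it was 1.86 and called. SAKL0B00110g and SAKL0E00110g, the outermost genes of their chromosomes on the array, changed by -0.59 and -0.52 in WT (limma, adjusted p = 0.0770 and 0.113), and their probes name each other's gene. Both were called without WT YPD replicate 2, at -0.84 and -0.77, and SAKL0B00110g also without WT YPGly replicate 4, at -0.73. In all, the chosen probes of 9 left-end genes name another gene, 7 of them tested, and for PEP1 that gene is SAKL0D15400g.

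Orthologs of the factors known to act at telomeres and in silencing were looked at beside the left-end genes, from a list of 17, of which 10 were tested. In YPD 0 differed between the strains by limma, with 1 at an unadjusted p under 0.05, beside 2.66% of all genes. In YPGly 2 were higher in sef1Δ, against 0.729% of all genes. YKU80 (SAKL0E03652g), a subunit of the Ku heterodimer that binds telomere ends and broken DNA, had a mean of -0.26 ± 0.11 in WT and of 0.63 ± 0.24 in sef1Δ (SD, n = 4 each), a difference of 0.89 (SE 0.17, limma, adjusted p = 0.0326). SPP1 (SAKL0H07172g), a subunit of the histone H3 methyltransferase complex COMPASS, differed by 1.03 (SE 0.18, limma, adjusted p = 0.0249). Both calls were near the threshold. That of YKU80 held when sef1Δ YPGly replicate 2 was left out and was lost without any 1 of the other 7 arrays, at 0.84 to 0.99. That of SPP1 held without that array or WT YPGly replicate 4 and was lost without any 1 of the other 6, at 0.93 to 1.07. Both rose from YPD to YPGly in both strains, YKU80 by 1.12 in WT and by 2.47 in sef1Δ and SPP1 by 1.77 and by 2.92. TUP1 (SAKL0A00660g), a general corepressor, fell by 0.64 in WT and by 0.62 in sef1Δ, with 0.05 in WT under spike-in scaling. RAD50 (SAKL0C03410g) and MRE11 (SAKL0H04950g), of the complex that processes broken DNA, fell in sef1Δ by 0.73 and 0.82. The RAD50 call was lost without sef1Δ YPD replicate 1 or 2 or YPGly replicate 1 or 4, at -0.71 to -0.57, and the MRE11 call held without YPD replicate 2 and was lost without any 1 of the other 7 arrays, at -0.92 to -0.60. SIR2 (SAKL0C08602g), the histone deacetylase of silencing, was not called in any comparison. Whether these factors bear on the left-end genes was not tested.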

How the data were processed

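Total RNA was reverse-transcribed from oligo-dT primers and labelled with an Alexa Fluor dye, and the authors read the arrays with Agilent Feature Extraction (version 10.5.1.1 in the submitters' processing notes). The deposited intensity is the processed signal of each spot, after the authors' background subtraction, on a linear scale. The well-above-background, saturation and outlier flags deposited beside it were used as other values, and 32 spots flagged as non-uniform were left out. The deposited table of log2 values holds the same signals scaled by the authors to the 75th percentile. It differed from the values used here by a constant of 0.00235 to 0.00787 per array. Here log2 signals minus the 75th percentile of each array's gene probes were fitted with limma 3.58.1 in R 4.3.3, one fit per comparison of 8 arrays and one over 16 for the interaction, with Benjamini-Hochberg adjustment over the 4255 genes tested. The replicate SD of 4 arrays limits the precision. The fits were tested on simulated data. Counts and figures were made in Python 3.11.15.

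Samples were grouped by strain and medium from the labels. The labels call the repeats biological. The sample titles state no pairing of WT with sef1Δ samples by repeat number. Deviations of same-numbered arrays from their group means were correlated over the genes tested. The correlation was 0.37 to 0.71 in YPD and 0.21 to 0.70 in YPGly. In YPGly replicates 1 and 4 correlated more with a differently numbered array (0.277 and 0.324) than with their own number (0.208 and 0.285). The members and gene lists were chosen with earlier results of these data known. Genes named are, per comparison, the members called (up to 12 per direction by size), the 5 smallest p-values between strains, the 5 brightest and 5 dimmest members, members whose probe names another gene or that are on the Sef1 list, the loci at the limit of the rule, and called telomere and silencing factors. Further genes named after their values were seen are FUI1, SUC2, ARN2, SIR2 and those with bounds. Alternatives were quantile, median and spike-in scaling, normexp background, other filters and probes, a shared spread, array weights, slide and repeat as blocks, single slides, the methods' t-test, a 2-fold threshold, and each array left out. Chromosome C was outside the rule. The annotation and the list of Sef1 peaks were held in part.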

Additional observations from a re-analysis of the deposited data

Results flagged for a closer look

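Among the 50 genes and 204 groups of 4 arrays looked at for the genes named above, 19 groups had 1 array that stood far from the other 3, where chance gives about 1 in 20. The number given is the gap to the nearest other array as a share of the group's range, and each exceeds the 95% limit of Dixon's test for 4 values. In WT in YPD these were BRE5 (replicate 3, 0.854), SAKL0D00550g (replicate 3, 0.856), FLO1-named SAKL0D00176g (replicate 2, 0.855), SAKL0B00110g (replicate 2, 0.834), SAKL0E00110g (replicate 2, 0.856) and SAKL0H00550g (replicate 1, 0.916). In sef1Δ in YPD they were YMC1 (replicate 4, 0.838), ADH5 (replicate 4, 0.863), SCW4 (replicate 1, 0.949) and SAKL0H00550g (replicate 3, 0.840). In WT in YPGly they were SAKL0E00264g (replicate 4, 0.895), SAKL0E00110g (replicate 4, 0.968), THI3 (replicate 2, 0.853), SAKL0G00418g (replicate 2, 0.840) and RAD50 (replicate 2, 0.938). In sef1Δ in YPGly they were YKL070W (replicate 2, 0.915), SAKL0D00286g (replicate 2, 0.839), SAKL0G00418g (replicate 2, 0.868) and ERG13 (replicate 3, 0.948). The gap was widest for SAKL0E00264g, where WT YPGly replicate 4 was at -0.08 and the others were between 3.31 and 3.71. ADH5 on sef1Δ YPD replicate 4 was at -1.66, against -2.76 to -2.61.

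The strain difference itself differed between media for a pair of the 10 telomere and silencing factors tested, against 0.658% of all genes. The list of these factors was chosen with earlier results of these data known. For YKU80 it was larger in YPGly than in YPD by 1.35 (SE 0.24, limma interaction, adjusted p = 0.0130), from -0.46 in YPD to 0.89 in YPGly. For SPP1 it was larger by 1.15 (SE 0.23, limma interaction, adjusted p = 0.0207), from -0.12 to 1.03. The SPP1 interaction lost its call without any 1 of 7 arrays (WT YPD replicate 3, WT YPGly replicate 1, sef1Δ YPD replicate 1 or 2, sef1Δ YPGly replicate 1, 3 or 4), at 1.07 to 1.15. The cause was not tested.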

How the results depend on the processing

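Between media, the counts of left-end genes called moved by over 1.5 times with slide 1 alone (18 in WT, 21 in sef1Δ), slide 2 alone (16 and 20) and a 2-fold threshold (19 and 21). Calls over all genes fell as well. The main fit called 1036 lower and 746 higher in WT, and 953 and 770 in sef1Δ. Slide 1 alone gave 547 and 451, and 436 and 382. Slide 2 alone gave 488 and 401, and 584 and 516. The 2-fold threshold gave 520 and 428, and 532 and 467. Slide 1 held repeats 1 and 2 of each group, and slide 2 repeats 3 and 4. Leaving out 1 array gave 26 to 32 left-end genes in WT and 29 to 38 in sef1Δ. With the replicate number as a block they were 33 and 38, against 43.6% of all genes in each strain. This is a hint only, since same-numbered arrays of the 2 media did not all correlate. Between strains in YPGly the unpaired count was 0. It was 1 with quantile scaling, normexp background, the other probe or a slide block. With a shared spread 5 were called (2.75% of all genes), with the replicate block 9 (5.26%) and with array weights 13 (9.52%). The methods' t-test unadjusted called 12 (5.69% of all genes), and leaving out 1 array gave 0 to 5. In YPD the count was 0 throughout, without 1 array 0 to 0. The interaction gave 1 with quantile scaling, 2 with the replicate block (1.34% of all genes), 7 with array weights (3.97%) and 0 to 2 without 1 array. The methods' t-test and shared spread give no value for it. The block changed no other count by over 1.5 times. The left-end minus interior median was -1.06 below locus 300 and -0.57 to -0.46 without 1 array.

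Spike-in scaling and the return of the 3 left-out loci (2 called between strains in YPGly) were chosen after seeing the data. Between media that return gave 34 of 79 called in WT (43.0%, against 41.9% of all genes). In sef1Δ it gave 40 (50.6%, against 40.5%). With spike-in scaling SAKL0F00198g (0.00638) and SAKL0H00550g (0.0921) between strains in YPD changed sign, as did, between media in WT, YMC1 (0.0336), TUP1 (0.0463), RPM2 (0.39), SAKL0B00110g (0.10) and SAKL0E00110g (0.17). In sef1Δ SAKL0B00110g (0.11) and SAKL0E00110g (0.21) did so, as they did with slide 2 alone (0.0262 and 0.17). So did SAKL0E00110g without sef1Δ YPD replicate 1, at 0.0741 (-0.216 to 0.0741 without 1 array). With the mean of the probes these genes were at 0.29 and 0.18 in WT and 0.97 and 1.12 in sef1Δ. YKU80 and SPP1 between strains in YPGly lost their call with spike-in scaling, the other probe and single slides, and MRE11 with quantile, median and spike-in scaling, a shared spread and array weights. The cause was not tested.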
